A study of Mus musculus with 36 samples.

Results

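Transcripts of 9 enzymes of glucose metabolism were followed through the first week after birth in kidneys of 2 mouse models of polycystic kidney disease. They are 6 enzymes of glycolysis (Hk2, Hkdc1, Pfkp, Pfkl, Pgk1 and Pgam1) and 3 of gluconeogenesis (Fbp1, Pck1 and G6pc). The 9 genes were chosen by symbol, and each is represented by the 1 row with its highest mean count among the 29996 RefSeq transcript rows of the count table, which hold 20458 gene symbols. At P7, transcripts of all 3 gluconeogenic enzymes were lower in KO than in WT kidneys of both models, while Hk2 was higher in both and Hkdc1 passed the test in the Pkd2 model. Pfkp, Pfkl, Pgk1 and Pgam1 did not pass the test at any day in either model. In the Pkd1 model at P7, all 3 KO and 0 of 3 WT libraries held Y-linked counts, so sex and genotype cannot be told apart there. Of the 4 members that passed in that comparison, 0 to 4 passed when 1 library was left out. The Hk2 difference passed in 1 of 6 such fits in each model.

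RNA-seq of kidney was available for Pkd1f/f and Pkd2f/f mice on C57BL/6 at P1, P3 and P7, with 3 KO libraries (Pkd1f/f:HoxB7-Cre or Pkd2f/f:HoxB7-Cre) and 3 WT libraries (Pkd1f/f or Pkd2f/f) in each of the 12 groups, 36 in all. Every mouse, WT included, was homozygous for the floxed allele of its model, in which loxP sites flank exons of Pkd1 or Pkd2, and the controls were age-matched littermates without Cre. HoxB7-Cre acts in the collecting duct by the study's description, whereas RNA was taken from the kidney as a whole, so that a lower transcript level from fewer cells of a type and one from less RNA per cell cannot be told apart here. The labels give 3 separate samples per group, and the p-values measure the spread between them.

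Glycolysis breaks glucose down to pyruvate, and gluconeogenesis builds glucose from lactate, amino acids and glycerol through many of the same enzymes run in reverse. The irreversible steps have their own enzymes in each direction, hexokinase against glucose-6-phosphatase and phosphofructokinase against fructose bisphosphatase, and phosphoenolpyruvate carboxykinase leads into the gluconeogenic route. In the kidney, gluconeogenesis belongs to the proximal tubule, which matures after birth, while the distal nephron and the collecting duct rely more on glycolysis, and cystic epithelium is known for raised glycolysis.

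Between 7179152 and 15850818 reads were counted per library (median 13143336). Levels are given as CPM, which are counts scaled to a common library size with edgeR's TMM factors over the 36 libraries, and as CPM per kilobase of transcript wherever genes are compared with each other. Pkd1 itself did not pass the test in Pkd1 KO kidneys at any day. Pkd2 fell in Pkd2 KO kidneys at P7 only, from 312 to 329 CPM in WT to 259 to 273 CPM in KO. Its log2 fold change was -0.29 with a standard error, SE, of 0.05 (edgeR adjusted p = 0.0115). As 6.17% of all transcripts tested were lower in that comparison, this fall alone does not check the labels. The deleted genes do not check them in the other comparisons either. A count over the whole transcript does not isolate the deleted exons, and Cre leaves the gene intact in the other cells of the kidney. Counts of Y-linked genes split the libraries into 18 with at least 3926 such counts and 18 with at most 5. At P7 in the Pkd1 model, all 3 KO libraries and 0 of 3 WT libraries held them, so sex and genotype cannot be told apart in that comparison, whereas all 6 Pkd1 libraries at P3 and 5 of the 6 Pkd2 libraries at P7 held them. Transcripts of adrenal steroid production (Cyp11a1, Cyp11b1, Cyp11b2 and Star) summed to 2725, 969 and 883 CPM in Pkd2 WT 2 at P3, Pkd1 KO 1 at P7 and Pkd2 KO 3 at P7, against at most 24.7 CPM elsewhere. Liver transcripts (Alb, Apoa1, Apoa2 and Serpina1a) summed to 2409 CPM in Pkd2 KO 3 at P3, against at most 204 CPM elsewhere. Of the markers used to check the tissue, 8 of 10 for proximal tubule and 6 of 8 for collecting duct had more than 3 counts in at least 1 library.

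The members are single rows in the table except Pfkp. Reads that fit several RefSeq transcripts of a gene were hardly counted: the median of the mean counts was 157 for the 15732 genes with 1 row and 1.08, on the best row, for the 4726 genes with more. Pfkp is therefore seen only through reads particular to NM_019703, with 20.8 counts per library on average, and its level cannot be set against those of the other members. The rows used, each with RefSeq's span of the gene, were NM_013820 for Hk2 (chr6:82725025-82774454 of mm10), NM_145419 for Hkdc1 (chr10:62383137-62423711), NM_019703 for Pfkp (chr13:6579874-6649060), NM_008826 for Pfkl (chr10:77986947-78009807) and NM_008828 for Pgk1 (chrX:106187100-106203699). Those of the others were NM_023418 for Pgam1 (chr19:41911871-41918665), NM_019395 for Fbp1 (chr13:62864753-62888298), NM_011044 for Pck1 (chr2:173153073-173159274) and NM_008061 for G6pc (chr11:101367716-101377903). Counts cover the spliced exons of these transcripts, untranslated ends included.

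The promoters of the 5 members that passed a test at P7 are shown because 3 of these genes moved down together and the other two up. They run from 250 bases before the start site that the RefSeq promoter set gives on GRCm38.p6 (the assembly of mm10) through the first 50 bases from it, and are written 5′ to 3′ along the gene. The gene span given above begins at that start site for Hk2, Pck1 and G6pc, but 1254 bases before it for Hkdc1 and 16 bases before it for Fbp1, so positions in these windows hold for that start site only. Capitals mark the letters searched for on both strands: ACGTG or GCGTG, the core bound by hypoxia-inducible factors, ACGTCA, the core of the cyclic AMP response element, and TATAAA, the TATA box.
Hk2 (chr6:82774405-82774704, minus strand): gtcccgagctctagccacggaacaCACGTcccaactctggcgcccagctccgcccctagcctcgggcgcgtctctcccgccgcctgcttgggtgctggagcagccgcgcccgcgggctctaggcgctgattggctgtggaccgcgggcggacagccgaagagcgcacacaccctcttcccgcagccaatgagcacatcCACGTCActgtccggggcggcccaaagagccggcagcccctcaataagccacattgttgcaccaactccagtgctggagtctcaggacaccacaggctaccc
Hkdc1 (chr10:62422408-62422707, minus strand): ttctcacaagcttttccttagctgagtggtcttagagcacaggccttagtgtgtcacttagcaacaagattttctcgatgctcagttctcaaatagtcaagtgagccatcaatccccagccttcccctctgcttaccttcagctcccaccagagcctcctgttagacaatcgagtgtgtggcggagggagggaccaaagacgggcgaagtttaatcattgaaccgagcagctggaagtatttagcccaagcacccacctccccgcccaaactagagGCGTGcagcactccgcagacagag
Fbp1 (chr13:62888233-62888532, minus strand): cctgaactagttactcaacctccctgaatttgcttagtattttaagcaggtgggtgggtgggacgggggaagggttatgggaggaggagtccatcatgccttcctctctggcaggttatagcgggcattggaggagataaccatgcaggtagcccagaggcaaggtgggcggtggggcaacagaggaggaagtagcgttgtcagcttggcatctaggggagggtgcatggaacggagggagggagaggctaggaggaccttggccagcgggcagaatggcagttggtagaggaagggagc
Pck1 (chr2:173152823-173153122, plus strand): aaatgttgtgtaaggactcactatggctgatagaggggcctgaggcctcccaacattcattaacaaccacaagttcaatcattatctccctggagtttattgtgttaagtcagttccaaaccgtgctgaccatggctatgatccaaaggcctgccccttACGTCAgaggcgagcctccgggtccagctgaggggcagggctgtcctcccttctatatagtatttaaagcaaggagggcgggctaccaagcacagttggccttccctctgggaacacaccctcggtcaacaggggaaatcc
G6pc (chr11:101367466-101367765, plus strand): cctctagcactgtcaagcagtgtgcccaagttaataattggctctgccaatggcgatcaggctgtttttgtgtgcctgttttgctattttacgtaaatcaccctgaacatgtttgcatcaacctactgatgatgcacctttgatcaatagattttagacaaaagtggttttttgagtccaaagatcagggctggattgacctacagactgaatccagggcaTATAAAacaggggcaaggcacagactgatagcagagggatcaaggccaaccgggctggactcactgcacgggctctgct

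The hypoxia core stood in the window of 6 of 9 members, which were the 6 glycolytic genes, and in none of the windows of Fbp1, Pck1 and G6pc. It is a common word, present in 43.8% of all 32851 promoters, and the windows also differ in base composition, with a GC content of 67.3% in Hk2 and 52.3% in Hkdc1 against 57.3%, 52.0% and 46.7% in Fbp1, Pck1 and G6pc. Hk2 held it 2 times, at -226 and -52 from the start and both on the opposite strand, where the second overlaps an ACGTCA at -51. ACGTCA was found in Hk2 and in Pck1, at -91, and in 7.51% of all promoters. The letters TATAAA were found only in G6pc among the members, at -29, and in 13.6% of all promoters. A TATA box spelled otherwise was not searched for, so its absence elsewhere is not shown. These are matches of letters and no measure of binding.

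The members differed widely in level. Over the 36 libraries, Pgk1 (phosphoglycerate kinase) had a median of 321 CPM per kilobase and Pgam1 (phosphoglycerate mutase) 271, with Fbp1 next at 219.9. Pck1 stood at 98.6, Pfkl at 56.1 and G6pc at 37.3 CPM per kilobase, and the hexokinases Hkdc1 and Hk2 were the lowest of the single-row members, at 4.75 and 4.13. The spread across libraries differed as much as the levels did: the highest library was 2.02 times the lowest for Pgk1 and 2.07 times for Pgam1, but 8.95 times for Hk2, 10.1 times for Fbp1, 11.6 times for Pck1 and 20.7 times for G6pc.

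In Pkd2 WT kidneys the order changed with age. At P1 the levels per kilobase were 318 ± 2.41 CPM for Pgk1, 278 ± 23.5 for Pgam1, 225 ± 61.1 for Fbp1, 75.9 ± 26.7 for Pck1 and 29.1 ± 7.91 for G6pc (mean ± SD, n = 3, as in all such values here). At P7 they were 363 ± 25.1 for Pgk1, 297 ± 23.8 for Pgam1, 397 ± 58.7 for Fbp1, 377 ± 45.5 for Pck1 and 131.5 ± 12.4 for G6pc. Fbp1 and Pck1 thus stood beside Pgk1 at P7, within the spread of 3 libraries, after lying below it at P1. In Pkd1 WT kidneys at P7, Pgk1 had 323 ± 6.08 CPM per kilobase, above all libraries of Fbp1 (271 ± 29.5) and Pck1 (212.7 ± 77.2), so the order at P7 was not the same in the WT kidneys of both models. In Pkd1 KO kidneys at P7, Fbp1 had 88.1 ± 39.7, Pck1 74.8 ± 24.5 and Pgk1 305 ± 52.3 CPM per kilobase.

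Change over the first week was tested first in WT kidneys, as the course against which KO was read. Between P1 and P7, 3 members rose and 1 fell in the Pkd1 model, where 8.92% of the 12527 transcripts tested rose and 9.03% fell. The counts were again 3 and 1 in the Pkd2 model, where 7.95% of 12633 rose and 11.3% fell. The same 4 genes were called in both, with G6pc, Pck1 and Fbp1 rising and Hk2 falling.

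G6pc, the catalytic subunit of glucose-6-phosphatase that releases free glucose, had 52.1, 22.0 and 78.5 CPM in the Pkd1 WT kidneys at P1 and 183, 206 and 168 CPM at P7. In Pkd2 WT kidneys it went from 82.5, 79.9 and 48.2 CPM to 341, 284 and 327 CPM. All P7 kidneys were above all P1 kidneys of their model. How large a share of all transcripts was so separated between days in WT was not counted, here or for the members below. The log2 fold changes of G6pc were 1.85 (SE 0.56, adjusted p = 0.045) in the Pkd1 model and 2.17 (SE 0.24, adjusted p = 0.00108) in the Pkd2 model in edgeR's quasi-likelihood test. In the Pkd1 model, 3 of 9 fits lacking 1 library kept it, and it was lost without WT 1 or 2 at P1, WT 3 at P3 or any WT library at P7 (adjusted p 0.063 to 0.123), while in the Pkd2 model all 9 kept it.

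Pck1, cytosolic phosphoenolpyruvate carboxykinase and a rate-limiting step of gluconeogenesis, had 126, 103 and 214 CPM in Pkd1 WT kidneys at P1 and 569, 770.0 and 359 CPM at P7. In Pkd2 WT kidneys it had 259, 224 and 122 CPM at P1 and 956, 914 and 1141 CPM at P7, the steepest rise of the 9 members there. Again no library of P1 reached the lowest of P7. Its log2 fold changes were 1.93 (SE 0.44, edgeR adjusted p = 0.0145) and 2.31 (SE 0.24, adjusted p = 0.000992). Without Pkd1 WT 1 or WT 2 at P1 the adjusted p in that model was 0.0531 or 0.0575, over a range of 0.00175 to 0.0575 across all its alternatives.

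Fbp1, fructose bisphosphatase, which opposes phosphofructokinase, rose less. Pkd1 WT kidneys had 289.9, 222 and 224 CPM at P1 and 361, 447 and 393 CPM at P7, and Pkd2 WT kidneys 414, 348 and 235 CPM at P1 and 645, 629 and 487 CPM at P7. The log2 fold changes were 0.71 (SE 0.17, edgeR adjusted p = 0.0196) and 0.81 (SE 0.21, adjusted p = 0.0288). The call was lost without Pkd1 WT 2 or WT 3 at P1 (adjusted p = 0.0728 and 0.0595) and, in the Pkd2 model, without WT 2 or WT 3 at P1 or WT 1 or WT 2 at P7 (0.076 to 0.0907).

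Hk2, the hexokinase of growing and insulin-responsive tissue, ran the other way. It had 30.1, 24.2 and 33.1 CPM in Pkd1 WT kidneys at P1 and 4.51, 11.6 and 3.91 CPM at P7. In Pkd2 WT kidneys it had 24.8, 23.6 and 30.6 CPM at P1 and 5.86, 6.44 and 11.8 CPM at P7. The log2 fold changes were -2.13 (SE 0.36, adjusted p = 0.0038) and -1.72 (SE 0.26, adjusted p = 0.00317) in edgeR, and both held in 9 of 9 fits without 1 library and under every other setting tried. At P3 the WT kidneys still had 19.0 to 27.0 CPM in the Pkd1 and 19.9 to 22.9 CPM in the Pkd2 model, above every WT library of P7.

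The other 5 members did not pass the test over time. Hkdc1, a hexokinase-domain protein related to Hk2, had log2 fold changes of -0.40 and 0.36 between P1 and P7 in WT, and Pgk1 of -0.14 and 0.18. Pfkl, the liver-type phosphofructokinase, lay at 0.00 and 0.36, Pgam1 at -0.19 and 0.09 and Pfkp, the platelet type, at 0.22 and 0.07. As Hk2 fell and Hkdc1 did not pass the test, the share of Hkdc1 in the summed Hk2 and Hkdc1 level per kilobase was 49.2% ± 9.94 at P1 and 76.8% ± 13.8 at P7 in Pkd1 WT kidneys, and 41.1% ± 5.14 and 74.9% ± 8.66 in Pkd2 WT kidneys.

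Markers of other kinds of cells changed over the same days. Of 8 proximal tubule markers tested, 5 rose in each model between P1 and P7, and their list summed to 2310 to 2977 CPM in Pkd1 WT kidneys at P1 and 4920 to 5760 CPM at P7 (2295 to 4043 and 4899 to 6037 CPM in Pkd2 WT kidneys). Of 6 markers of dividing cells, 5 fell in the Pkd1 and 6 in the Pkd2 model, with sums of 1250 to 1335 CPM at P1 and 515.5 to 706 CPM at P7 in Pkd1 WT kidneys, and of 871 to 1170 and 385 to 581 CPM in Pkd2 WT kidneys. The part of either in the change of the members was not tested. The Pkd1 WT kidneys also differed in Y-linked counts, which 2 of 3 held at P1 and 0 of 3 at P7.

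**Figure D1:**
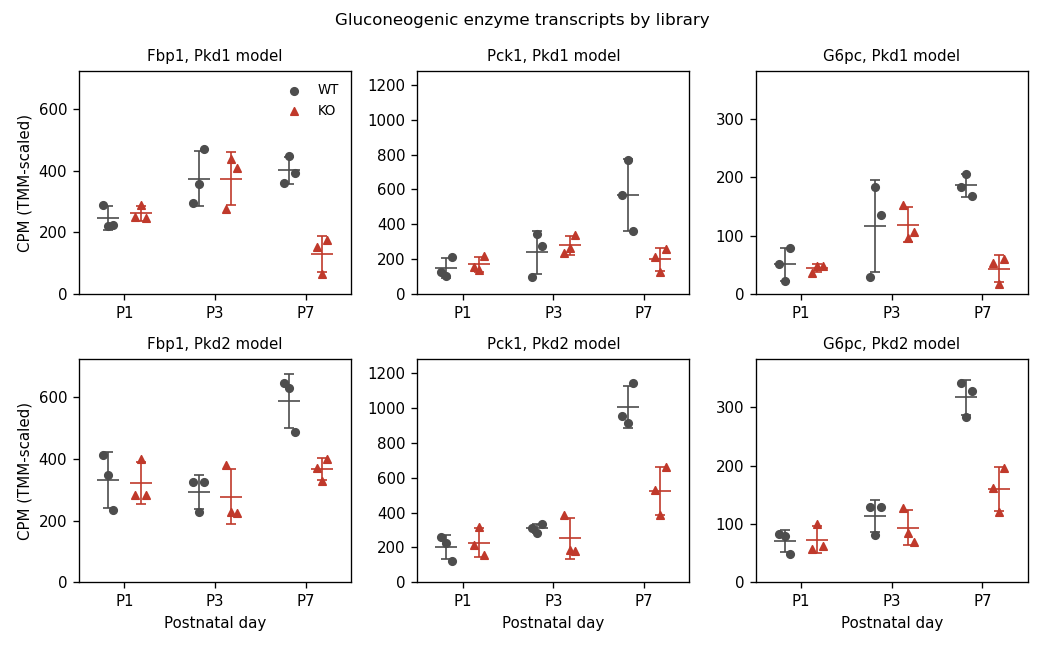
CPM of Fbp1, Pck1 and G6pc (columns) in each library of the Pkd1 (top) and Pkd2 model (bottom) by postnatal day, with WT as circles and KO as triangles and with bars for mean ± SD of 3 libraries. WT kidneys were highest at P7 for Pck1 and G6pc, and at P7 the KO libraries of all 3 genes lay below every WT library of their model.

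At P7, KO was compared with WT in each model. In the Pkd1 model, 1 of the 9 members passed the test as higher in KO and 3 as lower, where 6.32% of the 12527 transcripts tested were higher and 7.14% lower. For Pkd2 the counts were 2 higher and 3 lower, against 7.88% and 6.17% of 12633. The median log2 fold change of the 9 members was -0.09 and -0.33, with a median of 0.00 over all transcripts tested in both models. The 3 lower and 1 of the higher members were the same genes in both models.

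G6pc fell most among the 3 gluconeogenic members in both models. In Pkd1 KO kidneys at P7 it had 53.0, 16.5 and 59.5 CPM, close to the 22.0 to 78.5 CPM of WT kidneys at P1, whereas WT kidneys at P7 had 168 to 206 CPM. In Pkd2 KO kidneys it had 162, 121 and 196 CPM against 284 to 341 CPM in WT. No KO library overlapped with WT in either model. The log2 fold changes were -2.12 (SE 0.40, edgeR adjusted p = 0.0174) and -1.0 (SE 0.16, adjusted p = 0.00734), that is 4.35 and 2.0 times lower. The Pkd1 call was lost without WT 1 (adjusted p = 0.0645), and that of Pkd2 held in 6 of 6 fits without 1 library.

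Pck1 had 213, 128 and 256 CPM in Pkd1 KO kidneys, below WT with 569, 770.0 and 359 CPM. In Pkd2 KO kidneys it had 530.4, 385 and 659.8 CPM, below WT with 956, 914 and 1141 CPM. The log2 fold changes were -1.51 (SE 0.32, edgeR adjusted p = 0.0231) and -0.94 (SE 0.18, adjusted p = 0.0149). The Pkd1 call was lost without WT 1, KO 1 or KO 2 (adjusted p = 0.0794, 0.0666 and 0.081), and the Pkd2 call without WT 1 (adjusted p = 0.0529). The KO kidneys of the Pkd1 model overlapped with WT kidneys of P1 (103 to 214 CPM), whereas those of the Pkd2 model all lay above the highest WT library of P1, which had 259 CPM. With all 18 Pkd2 libraries in one fit the adjusted p was 0.0607, over a range of 0.00103 to 0.085 across all alternatives of that model.

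Fbp1 had 153, 63.6 and 174 CPM in Pkd1 KO kidneys, below every WT library of that model at any day, the lowest of which had 222 CPM. Pkd2 KO kidneys had 372, 329 and 401 CPM, and Pkd2 WT kidneys 645, 629 and 487 CPM. Its log2 fold change reached -1.63 (SE 0.32, edgeR adjusted p = 0.0196) in the Pkd1 model, where it was lost without WT 1 or KO 1 (adjusted p = 0.0651 and 0.0523). It was -0.69 (SE 0.12, adjusted p = 0.00978) in the Pkd2 model, where it held in 6 of 6 such fits but not with all 18 libraries in one fit (adjusted p = 0.0593, over a range of 4.72e-08 to 0.0593 across its alternatives).

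Hk2 was the member higher in KO of both models. At P7 it had 21.0, 18.3 and 15.4 CPM in Pkd1 KO kidneys against 4.51, 11.6 and 3.91 CPM in WT, and 16.3, 19.7 and 17.0 CPM in Pkd2 KO kidneys against 5.86, 6.44 and 11.8 CPM in WT. The groups did not overlap, and the KO kidneys lay between the WT kidneys of P7 and those of P1, the lowest of which had 23.6 CPM. The log2 fold changes were 1.44 (SE 0.40, edgeR adjusted p = 0.0478) and 1.13 (SE 0.26, adjusted p = 0.027). Of 6 fits that left out 1 library, the Pkd1 call held in 1, the one without WT 2 (log2 fold change 2.1, adjusted p = 0.00848), and the Pkd2 call in 1, the one without WT 3 (log2 fold change 1.51, adjusted p = 0.001), which were the WT libraries with the highest Hk2. Without WT 1, WT 3, KO 1, KO 2 or KO 3 the adjusted p in the Pkd1 model was 0.0546 to 0.157, and without WT 1, WT 2 or any KO library 0.056 to 0.0953 in the Pkd2 model.

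Hkdc1 had 20.1, 22.9 and 25.0 CPM in Pkd1 KO kidneys at P7 and 12.4, 11.7 and 18 CPM in WT. Pkd2 kidneys had 25.3, 33.6 and 30.1 CPM in KO and 15.3, 16.0 and 13.9 CPM in WT. KO and WT did not overlap in either. How large a share of all transcripts was so separated at P7 was not counted, here or for the members above. The Pkd2 difference passed the test (log2 fold change 0.97, SE 0.13, edgeR adjusted p = 0.00338) and held in 6 of 6 fits without 1 library. The Pkd1 difference did not (log2 fold change 0.69, SE 0.21, adjusted p = 0.0648), although it passed without WT 3 (adjusted p = 0.0145) over a range of 0.0145 to 0.653 across its alternatives. The share of Hkdc1 in the summed level of both hexokinases per kilobase was 66.0% ± 5.86 in Pkd1 KO and 72.4% ± 1.38 in Pkd2 KO kidneys at P7, and it overlapped with WT, as both genes stood higher.

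**Figure D2:**
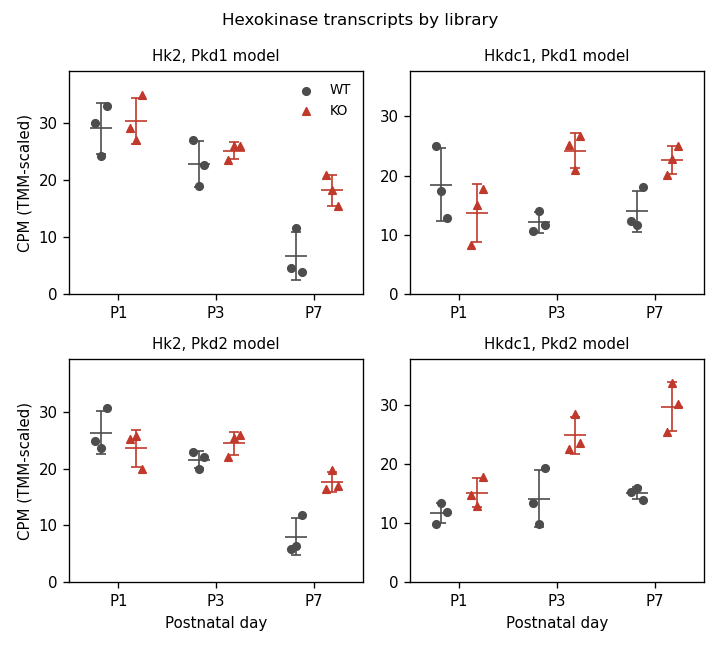
CPM of Hk2 and Hkdc1 (columns) in each library of the Pkd1 (top) and Pkd2 model (bottom) by postnatal day, with WT as circles and KO as triangles and with bars for mean ± SD of 3 libraries. Hk2 was lowest in WT kidneys at P7, where KO kidneys had 15.4 to 21.0 CPM, and Hkdc1 was higher in every KO than in every WT library at P3 and P7 of both models.

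The remaining 4 glycolytic members gave no call at P7. Pgk1 had 451 to 635 CPM in Pkd1 KO and 579.8 to 601 CPM in WT kidneys, a log2 fold change of -0.09 (SE 0.14). In the Pkd2 model its 3 KO libraries, with 560.0, 597 and 615 CPM, were just below those of WT, with 659, 618 and 709 CPM (log2 fold change -0.17, SE 0.07, edgeR adjusted p = 0.15). Pgam1 had log2 fold changes of -0.06 and -0.08 with standard errors of 0.12 and 0.08. For these 2 enzymes of the lower part of glycolysis the standard errors were thus smaller than the differences of the gluconeogenic genes. Pfkl, which commits sugar to glycolysis, had 222, 137 and 184 CPM in Pkd1 KO against 233, 279 and 193 CPM in WT, and 182, 228 and 212 CPM against 249.8, 189 and 339 CPM in the Pkd2 model, with log2 fold changes of -0.39 and -0.33 (SE 0.20 and 0.19) that did not pass. Pfkp had 1.39 ± 0.24 to 1.79 ± 0.47 CPM in the KO groups and 1.67 ± 0.33 to 1.74 ± 0.14 CPM in the WT groups.

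**Figure D3:**
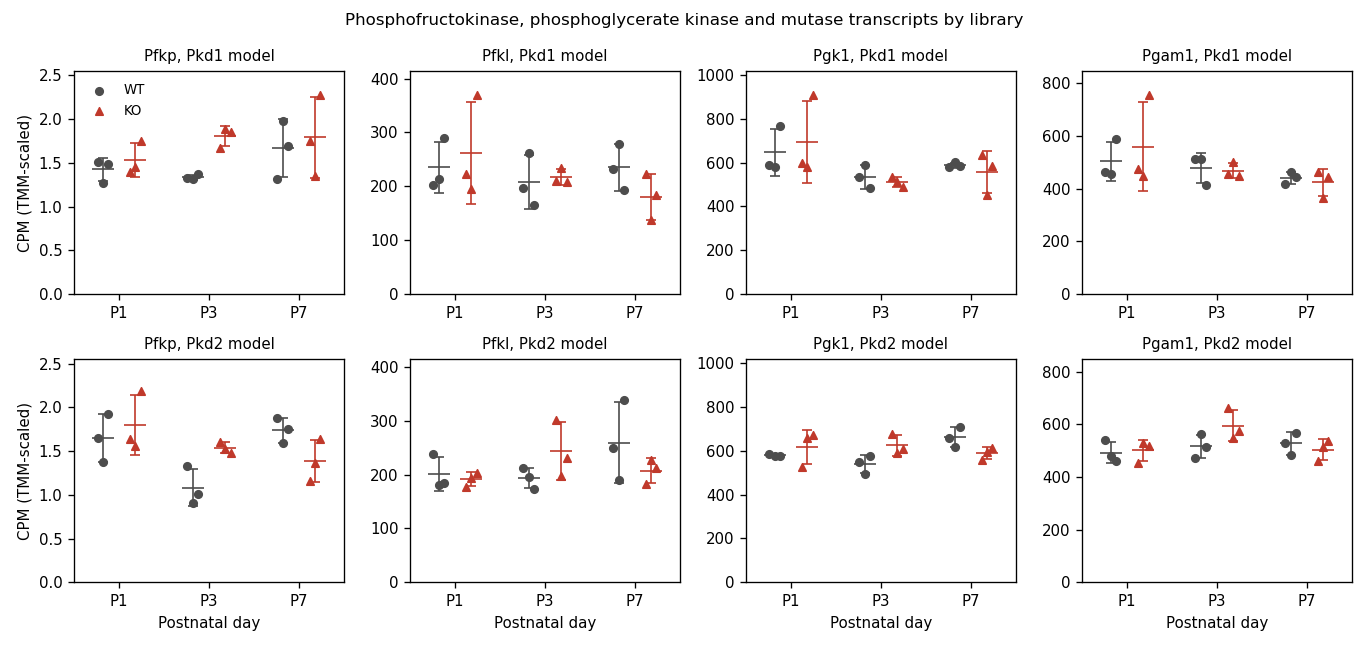
CPM of Pfkp, Pfkl, Pgk1 and Pgam1 (columns) in each library of the Pkd1 (top) and Pkd2 model (bottom) by postnatal day, with WT as circles and KO as triangles and with bars for mean ± SD of 3 libraries. KO and WT overlap in most panels, and the highest Pgk1 and Pgam1 values, 909 and 755 CPM, belong to 1 Pkd1 KO library at P1.

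Within a library, the ratio of hexokinase to glucose-6-phosphatase transcripts, as the log2 of Hk2 plus Hkdc1 over G6pc per kilobase, needs no scaling between libraries. In WT kidneys its mean was -0.83 ± 0.90 at P1 and -3.90 ± 0.28 at P7 in the Pkd1 model, and -1.81 ± 0.57 and -4.52 ± 0.18 in the Pkd2 model. In KO kidneys at P7 it was -0.67 ± 1.03 and -2.49 ± 0.48. The lowest KO library of P7, at -1.32 in the Pkd1 and -2.80 in the Pkd2 model, lay above the highest WT library, at -3.58 and -4.36. The opposing pair of the next step, Pfkl over Fbp1, differed in the Pkd1 model, with -0.76 ± 0.51 in KO and -2.11 ± 0.22 in WT at P7, but overlapped in the Pkd2 model, with -2.36 to -1.87 in KO and -3.07 to -1.86 in WT. These ratios restate the levels above and carry no test of their own.

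**Figure D4:**
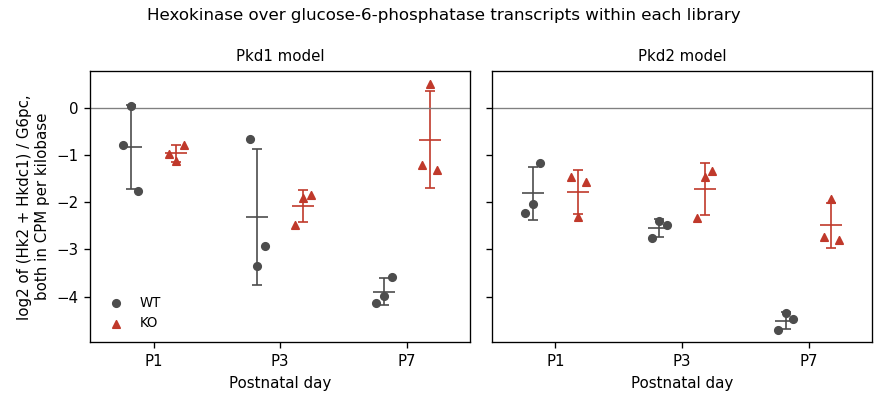
Log2 of the summed Hk2 and Hkdc1 level over the G6pc level, each in CPM per kilobase, in each library by postnatal day for the Pkd1 (left) and Pkd2 model (right), with WT as circles, KO as triangles, bars for mean ± SD of 3 libraries and a line where the levels are equal. At P7 every KO library lies above every WT library of its model.

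The groups at P7 also differed in other ways that touch these results. The 10 proximal tubule markers summed to 4920 to 5760 CPM in WT and 1572 to 2834 CPM in KO kidneys of the Pkd1 model, and to 4899 to 6037 CPM in WT and 3360 to 3517 CPM in KO kidneys of the Pkd2 model. Of the 8 tested, 7 fell in Pkd1 KO (Slc34a3, Lrp2, Cubn, Slc22a6, Slc5a2, Slc27a2 and Aqp1) and all 8, with Slc34a1, in Pkd2 KO, while Slc22a8 and Slc5a12 had at most 3 counts in every library. The median log2 fold change of the markers tested was -1.17 and -0.71, against 0.00 over all transcripts. In the fits that left out 1 library, 1 to 7 of the 7 Pkd1 calls were kept, with 1 without WT 1, 3 without KO 1 and 4 without KO 2, and 5 to 8 of the 8 Pkd2 calls, with 5 without WT 1. The 3 gluconeogenic members, at -1.51 to -2.12 and -0.69 to -1.0, thus fell alongside the markers of the tubule segment that makes glucose, and the part of that segment's cell number was not tested.

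Some other markers rose where Hk2 and Hkdc1 were higher. Of 6 markers of dividing cells, 3 rose in Pkd1 KO kidneys at P7 (Mki67, Cdk1 and Aurkb) and 5 in Pkd2 KO kidneys (those and Top2a and Ccnb1), with sums of 775 to 848 CPM against 515.5 to 706 CPM in WT and of 717 to 823 CPM against 385 to 581 CPM. Of 6 macrophage markers, 2 rose in Pkd1 KO (C1qa and C1qb) and 4 in Pkd2 KO (those, Csf1r and Lyz2), with sums of 349 to 421 CPM against 211 to 308 CPM and of 342.5 to 456 CPM against 214 to 251.5 CPM. Of 4 stromal markers tested, Acta2 rose in Pkd1 KO and Acta2, Col1a1 and Col1a2 in Pkd2 KO, with sums over the list of 9787 to 11790 CPM against 8082 to 10510 CPM and of 11510 to 14070 CPM against 8367 to 8915 CPM. In the Pkd1 model 2 of the 4 stromal markers had a log2 fold change above 0 and 2 below, from -0.54 to 1.42. Their sums overlapped with WT there, so Acta2 alone does not show a rise of stroma. Of the 6 macrophage markers, 5 lay above 0 and 1 below in that model. In the Pkd2 model all 4 stromal and all 6 macrophage markers lay above 0. Pdgfrb had at most 3 counts in every library. Without 1 library, the calls of Cdk1, C1qa, C1qb and Acta2 held in 6 of 6 fits in both models, as did Col1a1 in the Pkd2 model. Mki67 held in 0 of 6 and Aurkb in 1 of 6 in the Pkd1 model, so 1 or 2 of the 3 calls of dividing cells were kept there, and in the Pkd2 model 1 of the 5 was kept without WT 1, KO 2 or KO 3. Of the 4 macrophage calls in that model, 2 were kept without WT 1 or KO 3. The part of these cells in the hexokinase levels was not tested.

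Markers of the collecting duct, where Cre acts, did not move as one. Aqp2, Aqp3 and Scnn1g fell and Gata3 rose in Pkd1 KO kidneys at P7, and Aqp2, Aqp3 and Hsd11b2 fell in Pkd2 KO kidneys, of 6 tested each, with sums of 588 to 801 CPM against 1296 to 1544 CPM in WT and of 755 to 884 CPM against 1291 to 1603 CPM. Avpr2 and Scnn1b had at most 3 counts in every library. Ttr of the liver list and Slc4a1 of the erythroid list fell in both models. The other erythroid markers had at most 3 counts in every library, so Slc4a1 alone does not show a change in blood. The 4 liver genes tested did not move as one. Their log2 fold changes were above 0 for 2 in the Pkd1 and for 1 in the Pkd2 model, and otherwise below. Of the adrenal markers, 2 of 4 were tested in the Pkd1 and 4 of 4 in the Pkd2 model, with 0 called in edgeR. Without 1 library, Aqp3 was the 1 collecting duct marker called in all 6 fits in each model, while Aqp2 was called in 2 and 4 of 6. Ttr held in 3 and 2 of 6 fits, and Slc4a1 in all but the one without Pkd1 WT 1. Their part in the result was not tested.

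Sex and foreign tissue were taken up by leaving libraries out. In the Pkd2 model at P7, WT 3 was the 1 library without Y-linked counts, and without it all 5 calls held: Hk2 at a log2 fold change of 1.51, Hkdc1 at 0.92 (adjusted p = 0.00348), Fbp1 at -0.80 (adjusted p = 0.000844), Pck1 at -0.84 (adjusted p = 0.0177) and G6pc at -0.98 (adjusted p = 0.00712), each by edgeR. In the Pkd1 model a fit of all 18 libraries with Y-linked counts as a covariate left 0 of the 4 calls, with adjusted p values of 0.147 to 0.389 and log2 fold changes of 1.03 for Hk2, -1.87 for Fbp1, -2.26 for Pck1 and -3.72 for G6pc. Within a group, Y-linked counts differed only among the 3 Pkd1 WT kidneys at P1, so that fit takes the covariate from them. The share of all transcripts called in that fit is not given here, so its 0 calls cannot be read as particular to these genes. Without the libraries with adrenal or liver transcripts (at P7, Pkd1 KO 1 and Pkd2 KO 3), G6pc was the 1 member still called in the Pkd1 model (log2 fold change -2.30, adjusted p = 0.0458), while Hk2, Fbp1 and Pck1 had adjusted p values of 0.124, 0.0523 and 0.0666. In the Pkd2 model, 4 of 5 were still called, with Hk2 at an adjusted p of 0.0716.

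Before P7 no member passed the test. At P1, 0 of 9 were called in either model, as were 0% of all transcripts (0 of 12527 and 0 of 12633 in edgeR, with 157 and 708 at an unadjusted p under 0.05). At P3, 0 of 9 were called, against 0.00798% of all transcripts in the Pkd1 and 0% in the Pkd2 model (1 and 0 transcripts, with 1748 and 565 at an unadjusted p under 0.05). At P1 the log2 fold changes of the 9 members ran from -0.43 (Hkdc1) to 0.20 (Pck1) in the Pkd1 and from -0.16 (Hk2) to 0.37 (Hkdc1) in the Pkd2 model, and KO and WT overlapped for every member.

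At P3, Hkdc1 stood apart from the other members. It had 25.1, 20.9 and 26.7 CPM in Pkd1 KO kidneys against 10.6, 14.0 and 11.7 CPM in WT, and 22.5, 28.4 and 23.6 CPM in Pkd2 KO kidneys against 13.3, 9.78 and 19.3 CPM in WT. The groups did not overlap in either model, as was so, with every KO library above WT, for 8.86% and 5.22% of all transcripts tested. The log2 fold change in the Pkd1 model was 1.01 (SE 0.15), with an unadjusted p of 0.000128 and an adjusted p of 0.152 in edgeR, and DESeq2 called it (adjusted p = 3.38e-05, the lowest of a range up to 0.581 across its alternatives). For Pkd2 it was 0.81 (SE 0.25, adjusted p = 0.94). Without the Pkd2 libraries of P3 that held adrenal or liver transcripts (WT 2 and KO 3) it was 0.64 (SE 0.23). The share of all transcripts that DESeq2 called at P3 in the Pkd1 model is not given here, so its call of Hkdc1 has no background beside it.

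Other members at P3 gave small differences. Pfkp, at a level near 1 CPM, was higher in every KO than in every WT library in both models (log2 fold changes 0.44 and 0.49, SE 0.29 and 0.32). Pgk1 was higher in every Pkd2 KO library, with 679, 591 and 607 CPM against 548, 495 and 576 CPM in WT (log2 fold change 0.21, SE 0.08, edgeR adjusted p = 0.94). Hk2, with 23.6 to 26.1 CPM in Pkd1 KO and 22.1 to 25.8 CPM in Pkd2 KO kidneys, overlapped with WT. The gluconeogenic genes lay between -0.30 and 0.24 on the log2 scale with wide errors: G6pc had 30.0, 183 and 136 CPM in Pkd1 WT kidneys, where WT 1 stood far below the other two for Pck1 as well.

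**Figure D5:**
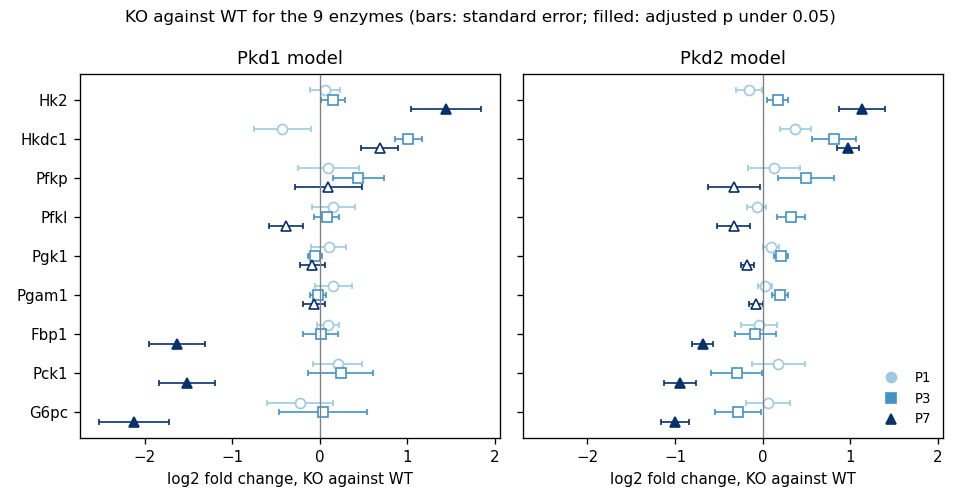
Log2 fold change of KO against WT with its standard error for each of the 9 members (rows) at P1 (circles), P3 (squares) and P7 (triangles) in the Pkd1 (left) and Pkd2 model (right), filled where edgeR's adjusted p was under 0.05. The filled symbols are those of Hk2, Fbp1, Pck1 and G6pc at P7 in both models and of Hkdc1 at P7 in the Pkd2 model.

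Whether the KO effect at P7 differed from that at P1 was tested as an interaction over the 18 libraries of a model. In the Pkd1 model 2 of 9 members passed, Fbp1 (log2 difference of the effects -1.73, SE 0.38, edgeR adjusted p = 0.0141) and Hk2 (1.37, SE 0.41, adjusted p = 0.0493), where 7.75% of all transcripts did. For Pkd2, 1 of 9 passed, Hk2 (1.29, SE 0.29, adjusted p = 0.0359), where 1.3% did. Fbp1 in the Pkd1 model held in 18 of 18 fits that left out 1 library. Hk2 did so in 4 of 18 in the Pkd1 model, those without WT 2 or KO 3 at P1 or WT 2 or KO 3 at P7 (otherwise adjusted p 0.0526 to 0.126), and in 7 of 18 in the Pkd2 model, those without WT 1 or KO 1 at P1, any WT library or KO 1 at P3, or WT 3 at P7 (otherwise 0.0501 to 0.11). Without the libraries with adrenal or liver transcripts Hk2 did not pass in either model, and Y-linked counts were held by 0 of 3 KO and 2 of 3 WT libraries at P1 in the Pkd1 model and by 0 and 1 in the Pkd2 model. The interaction of Pck1 and G6pc did not pass in either model, at -1.73 and -1.90 (adjusted p = 0.0648 and 0.116) in the Pkd1 and -1.12 and -1.06 (0.24 and 0.192) in the Pkd2 model.

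The KO effects at P7 were also compared between the models. In that test 0 of 9 members passed, as did 0% of the 12343 transcripts tested in both models, of which 2130 had an unadjusted p under 0.05. The effect on G6pc was lower in the Pkd1 model by 1.11 on the log2 scale (SE 0.47, edgeR adjusted p = 0.259) and that on Fbp1 by 0.93 (SE 0.38, adjusted p = 0.247), so the larger falls in the Pkd1 model do not count as a difference between the models here. For Hk2 the difference was 0.32 (SE 0.52) and for Hkdc1 -0.27 (SE 0.25).

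Isozymes of the members were measured where they have a single row. Pck2, the mitochondrial carboxykinase, had 26.2 ± 3.05 CPM per kilobase in Pkd1 WT and 30.2 ± 1.82 in KO kidneys at P7, and 21.7 ± 2.24 and 25.5 ± 2.88 in the Pkd2 model. At P7 the cytosolic Pck1 was thus above it in every group, at 212.7 ± 77.2 CPM per kilobase in Pkd1 WT and 74.8 ± 24.5 in KO kidneys. Pck2 did not pass the test (log2 fold changes 0.20 and 0.23, adjusted p = 0.29 and 0.21 in edgeR), nor did G6pc3, the ubiquitous phosphatase, with 36.4 ± 7.37 and 49.2 ± 4.16 CPM per kilobase in Pkd1 WT and KO kidneys (0.43, adjusted p = 0.0995) and 34.9 ± 2.52 and 34.5 ± 2.83 in the Pkd2 model (-0.02). In Pkd1 KO kidneys, G6pc3 was above G6pc (17.8 ± 9.61 CPM per kilobase), which in WT kidneys had 77.1 ± 7.94.

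Fbp2, the muscle-type bisphosphatase, and Pgam2, the muscle-type mutase, moved with Fbp1 in the Pkd2 model. Fbp2 fell there from 39.0 ± 7.47 to 26.1 ± 2.75 CPM per kilobase (log2 fold change -0.59, SE 0.15, edgeR adjusted p = 0.0372) and Pgam2 from 64.1 ± 9.55 to 41.6 ± 9.69 (-0.63, SE 0.18, adjusted p = 0.049). Both calls were lost without WT 1, WT 2, KO 2 or KO 3, with adjusted p up to 0.123 for Fbp2 and 0.136 for Pgam2. In the Pkd1 model their log2 fold changes were -0.45 and -0.54 and did not pass (adjusted p = 0.4 and 0.288). Both rose between P1 and P7 in WT kidneys of the Pkd1 (1.03 and 1.20) and the Pkd2 model (0.78 and 0.52). Pgk2 had 0 counts in nearly all libraries, and Hk1, Hk3, Pfkm and G6pc2 have several rows with at most 24.7 counts on average, so that their levels say nothing of the gene.

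Other genes of the 2 pathways could be read only in part. Of 13 further glycolytic genes, 8 were tested, with 0 called in Pkd1 and 1 in Pkd2 KO kidneys. Of these 8, Gpi1 (glucose phosphate isomerase) and Tpi1 (triosephosphate isomerase) have a single row and 10310 and 8679 counts on average, whereas the others have several rows and at most 363 counts in the row used, so the count over this list says little of the pathway. Gpi1 had log2 fold changes of -0.07 and -0.14 and did not pass the test in either model. Tpi1 fell in Pkd2 KO kidneys (-0.28, SE 0.06, edgeR adjusted p = 0.0204), from 470.5 ± 18.1 to 391 ± 7.21 CPM per kilobase, but not without WT 1, KO 2 or KO 3 (adjusted p up to 0.0913). Of 6 further gluconeogenic genes tested in the Pkd1 model, 3 fell, among them Mdh1, cytosolic malate dehydrogenase (-0.66, adjusted p = 0.0277), and Got2, mitochondrial aspartate aminotransferase (-1.13, adjusted p = 0.0267). In Pkd2 KO kidneys 3 of 7 fell, among them Mdh1 (-0.50, adjusted p = 0.00598) and Got1, the cytosolic aminotransferase (-0.31, adjusted p = 0.0372). The median of this list was -0.60 and -0.22. Without Pkd1 WT 1, KO 1 or KO 2, 0 of the 3 Pkd1 calls were kept, and without Pkd2 WT 1, WT 2 or KO 2, 1 of the 3 Pkd2 calls, that of Mdh1, which held in 6 of 6 fits.

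Of 8 carriers of glucose and lactate tested, 5 fell in Pkd1 KO kidneys at P7 and 4 in Pkd2 KO kidneys, with medians of -0.79 and -0.50. The apical sodium-glucose cotransporters of the proximal tubule were among them, Slc5a1 (log2 fold changes -1.50 and -0.72, adjusted p = 0.0148 and 0.0109 in edgeR) and Slc5a2 (-1.08 and -0.48, adjusted p = 0.0184 and 0.0423). Slc2a2, the basolateral glucose exit of that segment, fell in the Pkd1 model (-1.18, adjusted p = 0.0236), from 82.9 ± 3.35 to 36.9 ± 14.7 CPM. Slc16a7, a monocarboxylate carrier, and Slc2a4, the insulin-regulated glucose carrier, fell in both (-1.04 and -0.76, and -0.55 and -0.53). None of the 8 was called higher, and 2 had a log2 fold change above 0 in each model. Of the 5 Pkd1 calls 0 were kept without WT 1 and 1 without KO 1 or KO 2, and of the 4 Pkd2 calls 2, those of Slc16a7 and Slc2a4, held in 6 of 6 fits without 1 library.

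Regulators of pyruvate use and of fructose bisphosphate gave fewer calls in the Pkd1 model, where 1 of 12 rose and 0 fell. This was Pfkfb1, a bifunctional kinase and phosphatase that sets the activator of phosphofructokinase (log2 fold change 1.04, edgeR adjusted p = 0.0394), from 3.49 ± 0.22 to 7.26 ± 1.48 CPM. In Pkd2 KO kidneys 4 of 12 fell, the pyruvate dehydrogenase kinases Pdk2 (-0.45) and Pdk4 (-0.56), the dehydrogenase subunit Pdhb (-0.28) and the mitochondrial pyruvate carrier subunit Mpc1 (-0.34), with adjusted p values of 0.00694 to 0.034. The Pfkfb1 call held in 1 of 6 fits without 1 library, the one without WT 3, and with Y-linked counts as a covariate its log2 fold change was 0.27 (adjusted p = 0.797). Of the 4 Pkd2 calls, that of Pdk2 held in 6 of 6 such fits, and it was the 1 kept without WT 1, KO 2 or KO 3. The medians of the list were -0.21 and -0.25.

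Of 9 regulators tested, 3 fell in Pkd1 KO kidneys at P7 and 6 in Pkd2 KO kidneys, and the log2 fold change was below 0 for all 9 in both models, with medians of -0.42 and -0.41. The nuclear receptor Hnf4a, which drives gluconeogenic and proximal tubule genes, fell in both (-0.97 and -0.57, adjusted p = 0.0272 and 0.0328 in edgeR), as did Foxo1, an insulin-restrained activator of G6pc and Pck1 (-0.52 and -0.26). Epas1, a hypoxia-inducible factor subunit (-0.31), the glucagon receptor Gcgr (-0.48), the carbohydrate response factor Mlxipl (-0.50) and Esrra (-0.34) fell in the Pkd2 model. Without Pkd1 WT 1, KO 1 or KO 2, 0 of the 3 Pkd1 calls were kept, and without Pkd2 WT 1, WT 2, KO 2 or KO 3, 1 of the 6 Pkd2 calls, that of Epas1, which held in 6 of 6 fits. Foxo1 held in 3 of 6 such fits in the Pkd1 and in 0 of 6 in the Pkd2 model (adjusted p 0.059 to 0.176), and Hnf4a in 3 and 2 of 6. Hnf4a had 99.0 ± 15.5 CPM per kilobase in Pkd1 WT and 51.0 ± 15.1 in KO kidneys, and in WT kidneys it rose between P1 and P7 in both models (0.71 and 0.74).

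Across the 36 libraries, the members fell into sets by the likeness of their levels. On log2(CPM + 1), Pck1 and G6pc had Pearson's r = 0.913 with each other, which was the highest among 11926 genes for both, and G6pc and Fbp1 had 0.784. Pfkl, Pgk1 and Pgam1 had 0.72 to 0.743 with each other. Hk2 had -0.677 with Pck1 and -0.608 with G6pc, and Hkdc1 at most 0.179 in size with any other member. The libraries share genotypes and days, so these values describe the levels given above in another form.

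Among all genes, the one most like a member was in most cases no member. Fbp1 was most like Abcg2 (r = 0.929), Hk2 most like Ctnnd2 (0.917), Hkdc1 most like B4galnt2 (0.831), Pfkl most like Pdk1 (0.838), Pgk1 most like Tpi1 (0.783) and Pgam1 most like Pgk1 (0.736). Pfkp, on few counts, reached 0.616, with Slc2a1.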

How the data were processed

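Kidney RNA of 36 mice was sequenced. Per the study's methods and its processing notes, the authors called bases with CASAVA 1.8.2, aligned reads to mm10 with TopHat2 2.1.0 and deposited raw read counts per RefSeq transcript from HTSeq with default options, which leave out a read that fits more than 1 transcript, so genes with several transcripts are mostly undercounted.

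Symbols were taken from RefSeq (GRCm38.p6) for 28978 of 29996 rows, and lengths for 28877 from GENCODE. Transcripts reaching 10 counts in 3 or more of a model's 18 libraries were tested with edgeR 4.0.16 (quasi-likelihood test, TMM factors) in R 4.3.3, KO against WT from the 6 libraries of that model and day, P7 against P1 from the 9 WT libraries of a model, the difference between days from 18 and between models from 12 libraries. A call is a Benjamini-Hochberg adjusted p under 0.05 over all transcripts tested, and both it and each p are those of edgeR unless DESeq2 1.42.0 is named. All 9 members passed the filter, with at least 9 counts in every library. Depth was 7179152 to 15850818 counts, and precision is given by the spread over replicates. Replicate pairs differed beyond sampling noise (chi-square per transcript 5.13 to 64.1 over 36 pairs).

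The members and gene lists were chosen with earlier results of these data known. All members and isozymes are named, and of the other lists the genes called at P7, except a few genes that are counted in their lists but not reported here. Alternatives were DESeq2, RLE factors, no filter, a replicate block, summed rows of a gene, offsets for GC content and length, one fit over a model's libraries, Y-linked counts as a covariate and leaving out each library. Leaving out the 4 libraries with adrenal or liver transcripts was chosen after seeing the data.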

Additional observations from a re-analysis of the deposited data

Results flagged for a closer look

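The difference between KO and WT in Hk2 changed between P1 and P7 in both models by the edgeR interaction test. The change was 1.37 on the log2 scale in the Pkd1 model (adjusted p = 0.0493) and 1.29 in the Pkd2 model (adjusted p = 0.0359). These calls held in 4 of 18 and 7 of 18 fits without 1 library, and in neither model without the libraries with adrenal or liver transcripts. For Fbp1 the change was -1.73 in the Pkd1 model (adjusted p = 0.0141). In that model Y-linked counts were held by 3 of 3 KO and 0 of 3 WT libraries at P7. At P1 they were held by 0 of 3 KO and 2 of 3 WT libraries, so sex and genotype are not separated there. Pgk1 in the Pkd2 model was higher in every KO than in every WT library at P3, by 0.21, and lower in every one at P7, with -0.17. Neither passed the edgeR test (adjusted p = 0.94 and 0.15). At P3, 5.22% of all transcripts tested had every KO library above every WT library, and that share was not counted at P7. The difference between these days was not tested.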

How the results depend on the processing

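Of the 9 members, 4 were called at P7 in the Pkd1 model (edgeR). The count was 0 with Y-linked counts as a covariate, 1 without the libraries with adrenal or liver transcripts (an alternative chosen after seeing the data) and 0 to 4 over the 6 fits without 1 library, with 0 without WT 1. In the Pkd2 model 5 were called, against 3 with all 18 libraries in one fit and 3 to 5 without 1 library. At P3 in the Pkd1 model 0 were called and 1 with DESeq2. For the difference between P7 and P1, 2 members were called in the Pkd1 model, against 4 with DESeq2, 1 without the libraries with adrenal or liver transcripts and 1 to 3 without 1 library, and 1 in the Pkd2 model, against 0 without the libraries with adrenal or liver transcripts and 0 to 1 without 1 library. Of the 4 called over time in WT, 1 to 4 were called without 1 library in the Pkd1 and 3 to 4 in the Pkd2 model. The other counts stayed within 1.5 times, and no called value changed sign. Except where the alternative drops libraries, the cause was not tested. The shares of all transcripts called under these alternatives, DESeq2 and the Y-linked covariate among them, are not given here. The counts of members therefore stand without that background.

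Same-numbered KO and WT libraries deviated together only at P1 in the Pkd1 model (correlations 0.193 to 0.495, elsewhere -0.182 to 0.147). With the replicate number as a block, the count at P7 in the Pkd1 model was 2, as Hk2 and Pck1 had adjusted p = 0.0503 and 0.061, and that for the difference between days in the Pkd2 model was 0.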
